A study of Homo sapiens with 6 samples.

Results

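The 2 windows of chromosome 6 band 6p22 that hold the large clusters of replication-dependent histone genes were examined in ChIP-seq peak lists of H1299, a line of human non-small cell lung cancer. Intervals were chosen by position alone: every interval of the 4 lists that overlapped 26.0 to 26.3 Mb (first window) or 27.05 to 27.9 Mb (second window) of chromosome 6 on hg19 was a member. This gave 392 of 275570 intervals: 203 of 50585 for H3K4me3 in control cells, 187 of 53454 for H3K4me3 after metformin, and 1 of 85579 and 1 of 85952 for H3K27me3. Control cells were untreated, and the other cells received 5 mM metformin, a biguanide drug. All were grown in one serum-containing medium, and each mark and condition had 1 library, so no value below has a replicate error and no test between conditions was possible. Chromatin was cross-linked and cut with micrococcal nuclease before precipitation with an antibody to either mark. The 2 input libraries were not analysed here.

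Replication-dependent histone genes supply the histones that package newly copied DNA. They are transcribed mainly in S phase, in nuclear bodies organised by the factor NPAT, and their mRNAs end in a stem-loop in place of a poly(A) tail. H2A, H2B, H3 and H4 form the nucleosome core, and H1 binds the linker between nucleosomes. Both measured marks sit on histone H3, a protein family to which genes of this locus contribute. H3K4me3 marks active promoters, and H3K27me3 is laid down by Polycomb repressive complex and marks silenced genes.

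RefSeq (GRCh38.p14) names 53 protein-coding histone genes in order from H1-1 to H2BC17: 6 of the H1, 11 of the H2A, 14 of the H2B, 10 of the H3 and 12 of the H4 family. They stand in 3 groups. The first, from H1-1 to H4C8, holds 32 genes, the second, from H2BC11 to H2AC12, holds 5, and the third, from H2BC13 to H2BC17, holds 16. Between the second group and the last the table lists 77 other genes, of which 51 are tRNA genes, and between the first and second groups it lists 84, of which 47 are tRNA genes. The stretch from H1-1 to H2BC17 therefore also has many genes transcribed by RNA polymerase III. How many of them lie inside the windows was not determined. The peak lists are on hg19 and no gene positions of that build were used, so no interval below was placed on a gene.

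Promoter windows of 300 bases were matched by symbol for 48 of the 53 genes (52 windows, RefSeq, GRCh38.p14). From them 3 stretches, chosen by gene order, are shown with their matches to short promoter elements. In 8 pairs an H2A and an H2B gene start back to back, with 193 to 247 bases (median 241) between their starts, so that 1 short stretch serves as the promoter of both. The lines give the stretch between the starts of the first such pair in chromosome order (plus strand) and the 250 bases before the start of the first H3 gene (plus strand) and the first H4 gene (minus strand) with a window. Capitals mark matches, on either strand, to the CCAAT box, to the TATA box element searched as TATAAA, or to the octamer ATTTGCAT. The H4C2 stretch had TATAAA matches only, from bases 28 and 220 of the 250. Whether any match acts as a promoter element was not tested.
H2BC4 and H2AC6: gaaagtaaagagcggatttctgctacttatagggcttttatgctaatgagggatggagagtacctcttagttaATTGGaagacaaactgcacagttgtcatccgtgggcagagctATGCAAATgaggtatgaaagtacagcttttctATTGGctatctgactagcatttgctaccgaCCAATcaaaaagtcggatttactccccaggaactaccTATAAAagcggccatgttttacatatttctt
H3C1: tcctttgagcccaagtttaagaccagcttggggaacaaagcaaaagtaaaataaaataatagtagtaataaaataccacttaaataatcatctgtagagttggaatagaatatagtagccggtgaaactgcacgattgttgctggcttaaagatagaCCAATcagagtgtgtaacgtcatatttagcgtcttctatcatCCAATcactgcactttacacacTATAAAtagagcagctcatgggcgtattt
H4C2: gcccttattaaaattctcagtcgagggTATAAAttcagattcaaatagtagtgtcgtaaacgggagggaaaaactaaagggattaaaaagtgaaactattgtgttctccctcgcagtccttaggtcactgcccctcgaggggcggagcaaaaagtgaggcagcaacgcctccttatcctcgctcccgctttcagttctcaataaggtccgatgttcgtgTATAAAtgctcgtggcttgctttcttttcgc
The CCAAT box, read on both strands, was present in 45 of the 52 histone windows (86.5%) and in 34.6% of all 35116 promoter windows. The TATA box element, read the same way, was present in 34 (65.4%) against 11.5% of all windows. The octamer, bound by the factor OCT1, was present in 21 (40.4%) against 1.77%. The families differed: the octamer was found in 12 of 16 H2B and 8 of 10 H2A windows, in 1 of 10 H3 windows and in none of the 10 H4 and 6 H1 windows. CCAAT was found in all windows of the H1, H2A, H2B and H3 families and in 3 of 10 of the H4 family. The windows of a back-to-back pair overlap, so their matches are partly the same bases. With 52 windows for 48 genes, some genes also count more than once. H2AC12, H3C11, H3C12, H4C1 and H4C3 had no window.

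Both windows were densely covered by H3K4me3 in both conditions. In the first window H3K4me3 covered 26.4% of the sequence in control cells and 25.7% after metformin, and in the second window 21.0% and 22.98%. In the stretch between the windows, from 26.3 to 27.05 Mb, coverage was 10.9% and 11.8%. Over the 300 kb before the first window it was 3.18% and 2.88%, and over the 300 kb after the second window 7.99% and 8.24%. Over 1 Mb the flanks gave 1.39% and 1.31% before and 13.7% and 14.9% after, so beyond the second window coverage rose again, above that of the stretch between the windows. The windows thus held the mark at 2.06 and 2.01 times the coverage of the stretch between them, in control and metformin lists.

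In tiles of 50 kb, coverage inside the windows ranged from 6.46 to 19.6 kb in the first window and from 4.55 to 20.1 kb in the second in control cells. After metformin the ranges were 6.62 to 19.0 kb and 2.97 to 20.4 kb. Of all 61112 tiles of the genome 612 made up the densest 1%, and the windows contributed 15 of their 23 tiles to it in control cells (5 of 6 and 10 of 17) and 13 after metformin (4 of 6 and 9 of 17). The best tile of the windows, chr6:27100001-27150000, ranked twenty-fourth in control cells. The window edges do not bound the dense stretch: the tile just before the first window held 9.55 kb in control cells and 8.65 kb after metformin, and the tile just after it held 18.8 and 22.4 kb. The tile just after the second window held none in either list.

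**Figure D1:**
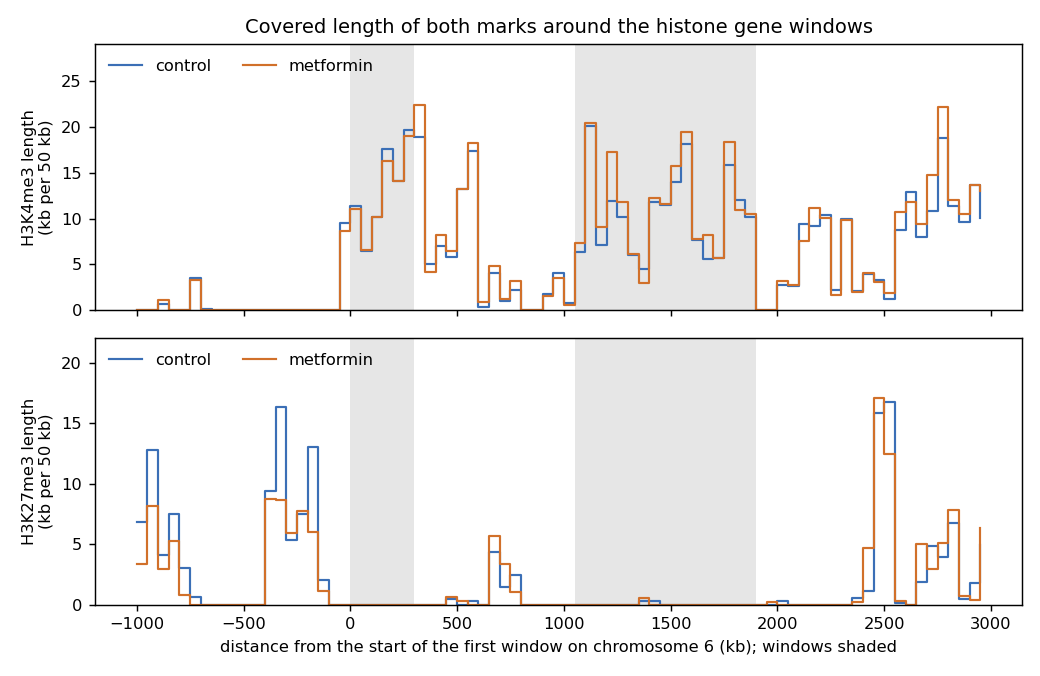
Covered length of H3K4me3 (top) and H3K27me3 (bottom) in tiles of 50 kb over 4 Mb of chromosome 6, in control and metformin lists, against distance from the start of the first window (kb), with the windows shaded. H3K4me3 is present in every tile of both windows while H3K27me3 is at 0 in the first and under 1 kb in every tile of the second.

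The mark was not spread evenly, and stretches with no H3K4me3 in either list separated groups of intervals. There were 27 such empty stretches of 10 kb or more. The longest were chr6:27358561-27419799 (61.2 kb) and chr6:27663293-27720263 (57.0 kb), both in the second window. In the first window the longest were chr6:26057836-26086410 (28.6 kb) and chr6:26130378-26155312 (24.9 kb). The plot of intervals along the windows shows both lists.

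**Figure D2:**
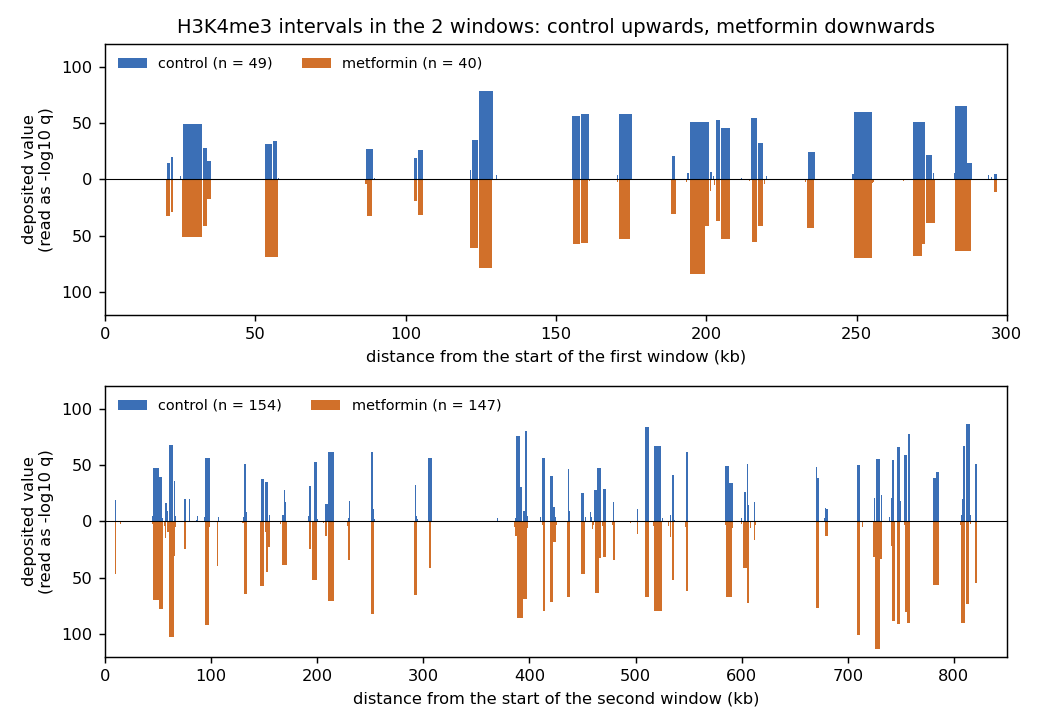
H3K4me3 intervals of the first window (top) and second window (bottom), drawn from their start to their end against distance from the start of the window (kb), with control values upwards and metformin values downwards; the height is the deposited value, read as −log10 q. The same groups of wide, high-valued intervals appear in both lists, with 49 and 40 intervals in the first window and 154 and 147 in the second.

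Very wide and very high-valued H3K4me3 intervals made up a larger share of the windows than of the whole lists, while typical members differed between the windows. Median widths were 1095 bp in control cells and 1357.5 bp after metformin in the first window, 506 and 510 bp in the second, and 517 and 524 bp over the lists. The deposited value of each peak was taken as −log10 q; the lists were called separately, so values of both lists are given side by side and their difference is not a measure of signal. Median values were 16.1 and 34.8 in the first window, 5.82 and 6.12 in the second, and 5.73 and 6.31 over the lists, so only the first window stood above its lists in both medians. Of the control members 32 of 203 (15.8%, exact 95% interval 11.04 to 21.5) had a value of 50 or more, against 3.28% of the whole control list. After metformin the number was 48 of 187 (25.7%, 19.6 to 32.6), against 5.86%. Widths of 4 kb or more were found in 15 control members (7.39%, 4.19 to 11.9) against 2.44% of the list, and in 16 metformin members (8.56%, 4.97 to 13.5) against 2.98%. These intervals cover counting error only and treat neighbouring members as independent.

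Dense H3K4me3 elsewhere gave a closer comparison. Outside the windows, 597 tiles belonged to the densest 1% of the control list. Intervals touching these tiles were 4 kb or wider at nearly the same rate, 6.09% in control cells and 7.74% after metformin. Values of 50 or more were rarer there, 6.08% and 9.51%, and both lie below the lower limits of the intervals given for the windows. Those limits treat neighbouring members of 1 library as independent, so this is a description and not a test. Median values in the other tiles were 6.19 in control cells and 6.41 after metformin, which lies below the medians of the first window and above those of the second.

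Values of 50 or more made up a larger share of the first window (20.4% in control cells, 35.0% after metformin) than of the second (14.3% and 23.1%), while 9 of the 10 highest members lay in the second, longer window. In control cells the 5 highest were chr6:27861227-27865298 (86.2), chr6:27558846-27563068 (84.1), chr6:27445910-27447924 (80.5), chr6:26124388-26129063 (78.6) and chr6:27806384-27808512 (77.1). After metformin they were chr6:27775945-27780425 (113), chr6:27110057-27114683 (103), chr6:27759135-27761957 (101), chr6:27143851-27147641 (91.96) and chr6:27796208-27799211 (90.8). None of these 5 was among the control 5, although each had a control partner. These 10 members exceeded between 99.6% and 99.9% of the intervals of their own list.

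Of the 5 widest members, in contrast, 3 were at the same place in both lists. The widest was chr6:27567832-27574403 in control cells (6572 bp, 20 sub-peaks, value 66.6) and chr6:27567499-27574563 after metformin (7065 bp, 22 sub-peaks, value 79.5). In the control list its sub-peaks, in file order, reached 45.5 at the fourth and 66.6 at the seventeenth and fell to 5.32 at the fourteenth. In the metformin list they reached 41.0 at the sixth, 38.4 at the tenth and 79.5 at the nineteenth, with 3.76 at the eleventh. Each list thus shows high sub-peaks before and after low ones inside this 1 interval.
The next were chr6:26025812-26032274 in control cells (6463 bp, 16 sub-peaks) and chr6:26025697-26032350 after metformin (6654 bp, 20 sub-peaks), in the first window. The sequence of the control interval lay wholly within the metformin one. In control cells the others were chr6:26194547-26200894 (6348 bp), chr6:26249310-26255165 (5856 bp) and chr6:27095105-27100483 (5379 bp). After metformin they were chr6:26249177-26255060 (5884 bp), chr6:27635059-27640937 (5879 bp) and chr6:27260452-27266022 (5571 bp). The lowest-valued members lay near the calling limit. In control cells they were chr6:27633361-27633636 (1.32), chr6:27652038-27652397 (1.39) and chr6:26211640-26211943 (1.45), and after metformin chr6:27255739-27255992 (1.32), chr6:27545228-27545521 (1.34) and chr6:26265389-26265634 (1.35).

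Metformin and control lists shared the main H3K4me3 sites of the windows. Of the control members 153 of 203 (75.4%, 68.8 to 81.1) overlapped a metformin interval by at least 1 bp, against 77.3% of the whole list. Of the metformin members 133 of 187 (71.1%, 64.1 to 77.5) overlapped a control interval, against 67.3%. These shares lie near the background and set the windows apart from neither list. Sharing depended on width: all 81 control and all 84 metformin members of 1 kb or more had a partner, and under 1 kb 72 of 122 control (59.0%) and 49 of 103 metformin members (47.6%) had one. The whole lists gave 67.1% and 51.6% under 1 kb and at least 98.5% in either list from 1 to 2 kb and above, so full sharing of the wide members was also the rule elsewhere.

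Members of 1 list only were short and low-valued. The 50 control-only members had a median width of 226 bp and values of at most 5.59, and the 54 metformin-only members had a median width of 266.5 bp and values of at most 7.66. The widest control-only members were chr6:26248464-26249037 (574 bp), chr6:26024875-26025387 (513 bp) and chr6:27148915-27149379 (465 bp). They lay 139, 309 and 104 bp from the nearest metformin interval. The widest metformin-only members were chr6:27506847-27507532 (686 bp), chr6:27658105-27658759 (655 bp) and chr6:27650196-27650817 (622 bp), at 14, 268 and 262 bp from the control list. Of the single-list members 37 of 50 (74.0%) and 38 of 54 (70.4%) lay within 1 kb of the other list, against 65.8% and 61.9% over the whole lists, where the median widths of such intervals were 252 and 263 bp. The windows were more densely covered than the genome at large, and these shares were not computed for the other dense tiles.

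H3K4me3 covered slightly more of the windows after metformin, in fewer intervals. Covered length was 257.7 kb in control cells and 272.5 kb after metformin, 1.06 times as much, against 1.12 times over the whole lists. Length-weighted mean values were 40.6 and 53.0 in the windows and 25.5 and 30.3 over the lists. The number of members went the other way from the lists, at 0.921 times in the windows and 1.06 times overall. The windows differed from each other: covered length was 79.2 and 77.2 kb in the first (0.974 times) and 178.5 and 195.3 kb in the second (1.09 times). The stretch between them, with 81.8 and 88.6 kb, gave 1.08 times. Whether the first and second windows differ beyond the variation between libraries could not be tested with 1 library per condition, and read depth is unknown because the lists hold no counts.

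To compare lengths where 1 list divides what the other joins, overlapping intervals of both lists were joined into sites. The windows held 217 sites: 113 in both lists, 50 in control only (23.04%, against 19.1% of the 60116 sites of the genome) and 54 in metformin only (24.9%, against 29.1%). In the first window 14 were control-only and 7 metformin-only, and in the second window 36 and 47. Of the 113 sites of both lists, 25 were divided into more intervals in control cells (22.1%, against 17.4%) and 10 into more after metformin (8.85%, against 9.53%). Control sites were thus divided more often than metformin sites, in the windows as in the genome.

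Covered length per site was close in both conditions. The median ratio of metformin to control length was 1.03 over the 113 sites and 1.07 over all such sites of the genome. Among them 68 were longer and 45 shorter after metformin (60.2% longer, against 61.8%). Past 1.5 times, 8 sites were longer (7.08%, against 18.1%) and 7 shorter (6.19%, against 7.87%). In the other dense tiles these shares were 15.7% and 8.58% of 3613 sites, so large gains of length made up a smaller share in the windows than in either background. The sites of the windows were also longer, with a median span of 2159 bp against 1310 bp in the genome. Of sites of 2 kb or more, 2 of 57 in the windows and 599 of 10353 in the genome gained past 1.5 times. Whether site size accounts for the smaller share was not tested. Among the 57 sites of 2 kb or more, 34 (59.6%) had lengths within 10% of each other, against 47.6% in the genome, and ratios ran from 0.712 to 1.95.

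**Figure D3:**
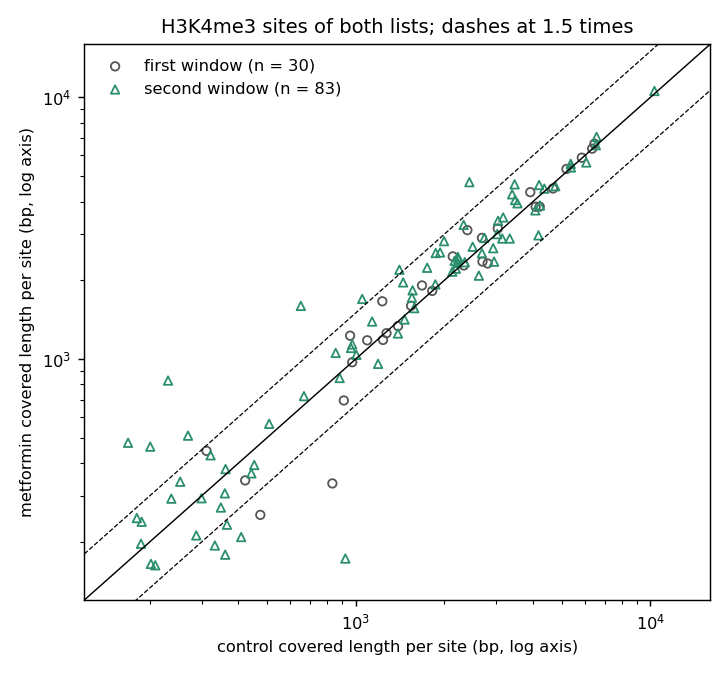
Covered length of each of the 113 H3K4me3 sites found in both lists, control against metformin (bp, log axes), with circles for the first and triangles for the second window, a solid line at equal length and dashes at 1.5 times. Of the 15 sites beyond the dashes, 11 span less than 1 kb, and 0 of the 57 sites of 2 kb or more in both lists lie below the lower one.

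The sites with the largest gain in length all lay in the second window, where 8 of 83 passed 1.5 times and in the first window 0 of 30 did. They were chr6:27177715-27178542 (231 bp in control, 828 bp after metformin, 3.58 times) and chr6:27782811-27783289 (169 and 479 bp, 2.83 times). After these came chr6:27155170-27156766 (652 and 1597 bp, 2.45 times), chr6:27618859-27619321 (201 and 463 bp, 2.30 times) and chr6:27244657-27249400 (2433 and 4744 bp, 1.95 times). The last is the only one of the 5 above 2 kb, and there 3 control intervals with 10 sub-peaks stood against 1 metformin interval with 13, with highest values of 52.8 in the control and 52.3 in the metformin list. At chr6:27155170-27156766 the values were 17.4 in control and 39.5 after metformin, and at the other 3 they were at most 5.84 in either list. With intervals within 1 kb joined, the ratio stayed past 1.5 times at chr6:27244657-27249400 (1.66) and ranged from 1.11 to 1.35 at the other 4.

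The 7 sites shortened past 1.5 times after metformin spanned less than 1 kb each. The largest loss was at chr6:27129139-27130061, with 923 bp in control cells (value 20.2) and 173 bp after metformin (value 12.9), or 0.187 times. It was followed by chr6:26201249-26202082 (834 and 335 bp, 0.402 times) and chr6:27865633-27865993 (361 and 179 bp, 0.496 times). The next were chr6:27344253-27344661 (409 and 209 bp, 0.511 times) and chr6:26170294-26170768 (475 and 254 bp, 0.535 times). Values at these last 4 were at most 9.93. The losses depended on how sites were drawn. With intervals within 1 kb joined, the ratio was 1.01 at chr6:27865633-27865993, or near equal length, and 1.39 at chr6:27344253-27344661, now a gain. It was 0.953 at chr6:26201249-26202082 and 0.870 at chr6:26170294-26170768, and stayed at 0.187 at chr6:27129139-27130061. Where neighbours were joined, the ratio no longer measures the short site alone. No site of 2 kb or more was shortened past 1.5 times.

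The largest joined site of the windows was chr6:27436780-27447965, picked for its size once the values were known. It spans 11186 bp and was covered over 10328 bp by 5 control intervals and over 10579 bp by 3 metformin intervals, with highest values of 80.5 and 85.5. The other 5 sites spanning more than 6 kb had ratios from 0.930 to 1.08, from chr6:27511315-27517564 (6064 and 5642 bp) to chr6:27567499-27574563 (6572 and 7065 bp). The site chr6:27775945-27780583, which held the highest metformin value, measured 4369 bp in control cells and 4481 bp after metformin. Its value was 55.1 in the control list and 113 in the metformin list.

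Wide H3K4me3 intervals of the windows often stood in pairs with a short gap. A close pair was defined as neighbouring intervals of 1 kb or more with at most 300 bp between them. In control cells 29 of 81 such members (35.8%) belonged to a close pair, against 21.0% of the whole list, and after metformin 36 of 84 (42.9%) did, against 23.3%. In the other dense tiles the shares were 31.1% and 34.6%, so the windows lay closer to these tiles than to the whole list. No counting limits were computed for these shares. In control cells 8 of the 23 window tiles were less dense than any of the other dense tiles, so density was not matched. Whether density accounts for the surplus over the whole list was not tested. By window the shares were 44.0% and 61.5% in the first and 32.1% and 34.5% in the second, from 25 and 26 members in the first window and 56 and 58 in the second.

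The gaps of the 16 control pairs measured 168 to 273 bp (median 209) and those of the 19 metformin pairs 169 to 266 bp (median 226). Whole-list medians were 211 and 213 bp. The shortest gap of any close pair in either list was 165 bp, and the definition allows at most 300 bp. This narrow range leaves the medians little room to differ. At 7 places both lists had the gap. These made up 43.8% of the control and 36.8% of the metformin gaps, against 36.9% and 30.0% over the whole lists. One was between chr6:26124141 and 26124387 in control cells (247 bp) and between chr6:26124156 and 26124389 after metformin (234 bp), with intervals of 2142 and 4676 bp on its sides in control and 2905 and 4488 bp after metformin. Another was at chr6:27832903-27833112 (210 bp) in control cells and chr6:27832894-27833119 (226 bp) after metformin. At chr6:27860954-27861226 (273 bp) in control cells and chr6:27860966-27861214 (249 bp) after metformin, the right-hand control neighbour is the member with the highest control value. The gaps were not placed on genes.

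**Figure D4:**
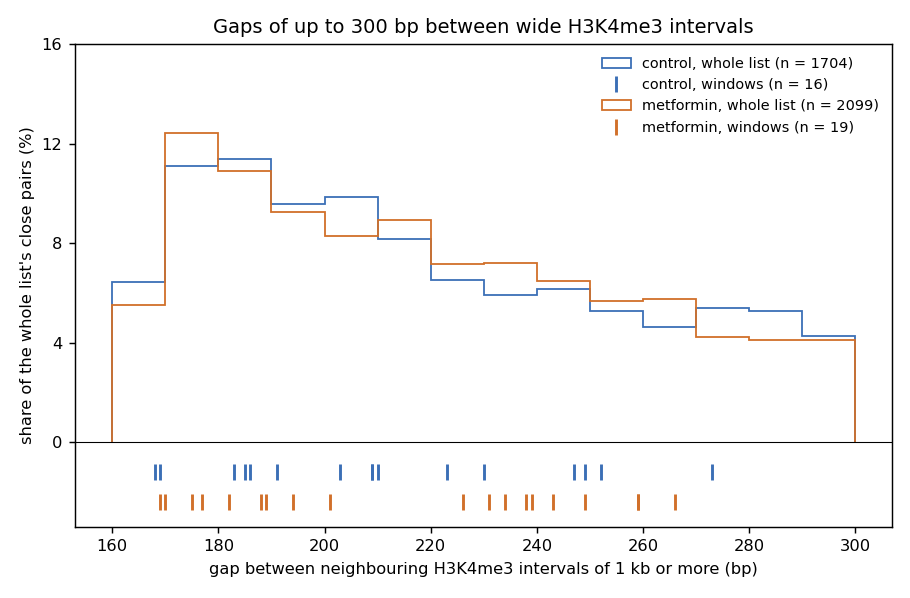
Gaps of up to 300 bp between neighbouring H3K4me3 intervals of 1 kb or more: outlines give the share of the whole list's close pairs per 10 bp (%), and ticks below 0 mark each gap of the windows, 16 in control and 19 in metformin cells. The gaps of the windows lie within the range of those of the whole lists, whose upper end the definition sets.

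H3K27me3 was nearly absent from the called regions of the windows. The first window held 0 intervals in either condition, and the second held 1 in each. In control cells it was chr6:27399725-27400333 (609 bp, value 1.53) and after metformin chr6:27394604-27395127 (524 bp, value 1.15). They did not overlap and lay 4597 bp apart, both inside the longest stretch without H3K4me3. The metformin value exceeded only 2.60% of its list and the control value 51.9%. Over the whole lists 48.3% and 46.3% of H3K27me3 intervals overlapped the other condition.

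H3K27me3 covered 0.0530% of the windows in control cells and 0.0456% after metformin. In the 300 kb before the first window it covered 9.31% and 6.95%, with 34 and 25 intervals, and in the stretch between the windows 1.21% and 1.49%, with 13 and 21 intervals. In the 300 kb after the second window 1 interval was found in each list, of 307 and 222 bp, but over 1 Mb there were 47 and 50 intervals covering 5.27% and 5.67%. The 2 tiles just before the first window held no H3K27me3 in either list. Of the 23 tiles of the windows 21 lacked H3K27me3 in control cells and 22 after metformin. Among the other dense H3K4me3 tiles 85.4% and 83.1% lacked it, and among all tiles 74.2% and 73.4%.

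No H3K4me3 interval of the windows carried H3K27me3 of its own condition. The counts were 0 of 203 in control cells (exact 95% interval up to 1.80%) and 0 of 187 after metformin (up to 1.95%). Over the whole lists 2.78% and 4.55% did, and in the other dense tiles 0.786% and 1.43%. The exact limits treat neighbouring intervals as independent. With 1 H3K27me3 interval per list in the windows, the count of 0 restates that near absence. The nearest H3K4me3 interval lay 19.5 kb from the H3K27me3 interval of the second window in control cells and 33.6 kb after metformin. The median distance from an H3K4me3 member to H3K27me3 was 207.9 kb in control cells and 192.8 kb after metformin, against 81.7 and 67.6 kb over the whole lists.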

How the data were processed

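The labels give 6 samples: H3K4me3, H3K27me3 and input from control and metformin-treated H1299 cells, 1 library each. Their 4 ChIP peak lists were analysed. Per the submitters' processing notes, Trimmomatic 0.38, Bowtie, MACS2 and hg19 (GRCh37) were used; for options and background library, nothing is stated in the labels. The lists were deposited per library without a header, with 1 value per peak that was read as a −log10 q, since the smallest values (1.31 for H3K4me3, 1.00 for H3K27me3) lie just above the −log10 of q limits of 0.05 and 0.1. Rows with the same interval (sub-peaks) were joined and keep their highest value. Coordinates are 1-based.

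Members, lists and measures were chosen with earlier results of these data known. Sites joined overlapping intervals of both lists. The alternatives were a value of 5 or more (1.5 for H3K27me3), an overlap of 50%, merging within 1 kb, a fold of 2 and flanks of 1 Mb. The comparison with other dense tiles and the close pairs were added after seeing the data. Named intervals follow a rule: per H3K4me3 list the 5 highest, 5 widest, 3 lowest and 3 widest of 1 list, and 5 sites of both lists with the largest length ratio in each direction. On simulated lists the site code recovered 100% of 566 widened and 565 shortened intervals with 0% false calls. Those lists held only 2826 control intervals that stood far from any neighbour, and none was split. The simulation thus checks the code and not sites with close neighbours, such as those of the windows. Overlap counts equalled those of bedtools 2.31.1 for 4 lists. Read depth is unknown. Python 3.11.15, pandas 2.3.3, numpy 2.4.6, scipy 1.17.1 and matplotlib 3.10.9 were used.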

Additional observations from a re-analysis of the deposited data

How the results depend on the processing

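No paired analysis was possible because each condition had a single library of each mark, and no replicate could be left out. Values are given as control, then metformin. At a value of 5 or more the windows held 119 and 114 H3K4me3 intervals, shared at 95.8% and 90.4%. Of the 91 sites of both lists then found, 10 were longer and 2 shorter past 1.5 times. With intervals within 1 kb merged they held 82 and 71 intervals, and 83.1% of the metformin intervals were shared. With intervals within 1 kb joined as 1 site, 4 of 60 sites were longer and 3 shorter. The ratio at chr6:27865633-27865993 then became 1.01, or near equal length, and that at chr6:27344253-27344661 became 1.39, a gain. Both ratios count neighbouring intervals with the short sites. Of the 5 largest gains only chr6:27244657-27249400 stayed past 1.5 times (1.66), and of the 5 largest losses only chr6:27129139-27130061 did (0.187). A fold of 2 left 4 longer and 3 shorter sites of 113. For sharing and for length calls, whole-list shares were not computed at these settings. Whether large gains stay a smaller share in the windows than elsewhere was therefore not tested there. Close pairs in control cells came to 53.1% with gaps of up to 500 bp (30.7% of the whole list) and 49.5% with widths of 500 bp or more (34.8%). At a value of 1.5 or more the metformin list held 0 H3K27me3 intervals in the windows. Covered length stayed lower after metformin in the first window (0.945 to 0.994 times) and higher in the second (1.11 to 1.12 times) under the 2 alternatives tried. The overlap of the marks stayed at 0 with H3K27me3 counted within 1 kb of an interval.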
